A study of Danio rerio with 6 samples.

Results

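The Hox cluster genes of zebrafish were followed in whole larvae at 5 days post-fertilization (dpf), in wild type fish (tlr2+/+) and in homozygous tlr2 mutants (tlr2-/-). The members were all entries of the gene table whose symbol starts with hox and whose mean over the libraries was above 0, which gave 50 of 23956 such entries. They carry 47 symbols in 7 clusters and 13 paralog groups, and 2 further Hox entries, 1 of hoxa11a and 1 of hoxb6b, had a mean of 0. Both genotypes had 3 libraries of unchallenged larvae, sequenced with reads of 150 nt. The mutants were homozygous for the ENU-induced sa19423 allele after outcrossing to the ABTL strain. The larvae of a sample came from a cross of tlr2+/+ or of tlr2-/- parents, so a difference between parents of the genotypes and the mutation cannot be told apart. How the 3 libraries of a genotype map to pairs of parents is not clear from the sources used here, so every error and p-value covers only how these samples differ among themselves.

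Hox genes encode homeodomain transcription factors that give cells their position along the head to tail axis. They lie in clusters, and their order in a cluster follows the order of their expression domains, with low paralog numbers in the hindbrain and pharyngeal arches and high numbers in the tail and the fins. Zebrafish kept duplicates of the ancestral clusters, so a symbol names the cluster by a letter (a to d), the paralog group by a number, and the duplicate by a final a or b. The proteins act with cofactors of the Pbx and Meis families, and their genes are switched on by retinoic acid and held silent by Polycomb proteins.

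The reads assigned to transcripts summed to 17854737 to 33403126 per library, and the number of genes detected did not follow this sum. At least 10 reads were assigned to 54.7% and 50.2% of all entries in tlr2+/+ replicates 1 and 2, to 83.8% in tlr2+/+ replicate 3, and to 65.7% to 72.7% in the tlr2-/- libraries. The 2 entries of tlr2 had 0 reads in each library, so its expression does not check the genotype labels. Fast skeletal muscle genes, 8 symbols with 10 entries, summed to 51431 CPM (counts on a common library size after TMM scaling) in tlr2+/+ replicate 3, to 120899 and 181763 CPM in the other tlr2+/+ libraries, and to 124340 to 179103 CPM in the tlr2-/- libraries. At most 1 of these 10 entries lacked a read in any library. These differences stand beside the Hox values below, and their part in them was not tested. In whole larvae, fewer cells of a type and less RNA per cell cannot be told apart.

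Among the Hox entries, 45 have a TPM value (Salmon's abundance, corrected for transcript length and library size), which allows levels to be compared between genes. Another 5 had reads in 1 library alone and are given as counts. Paralog group 3 was the most abundant, and it was the highest group in each library, as the plot of paralog group sums shows. By the mean over libraries, groups 4, 5 and 2 came next, but their order varied, with group 2 second in tlr2+/+ replicates 1 and 2 and group 9 above group 4 in tlr2+/+ replicate 3. The mean over the 6 libraries was 12.7 TPM for hoxb3a, 11.7 TPM for hoxd3a and 10.5 TPM for hoxa3a, genes of the hindbrain and the posterior pharyngeal arches. Together these 3 genes made up 31.7% to 44.9% of the summed Hox TPM of a library. The most abundant Hox gene was hoxb3a in 3 libraries, hoxd3a in 2 tlr2-/- libraries and hoxa3a in tlr2+/+ replicate 1.

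**Figure D1:**
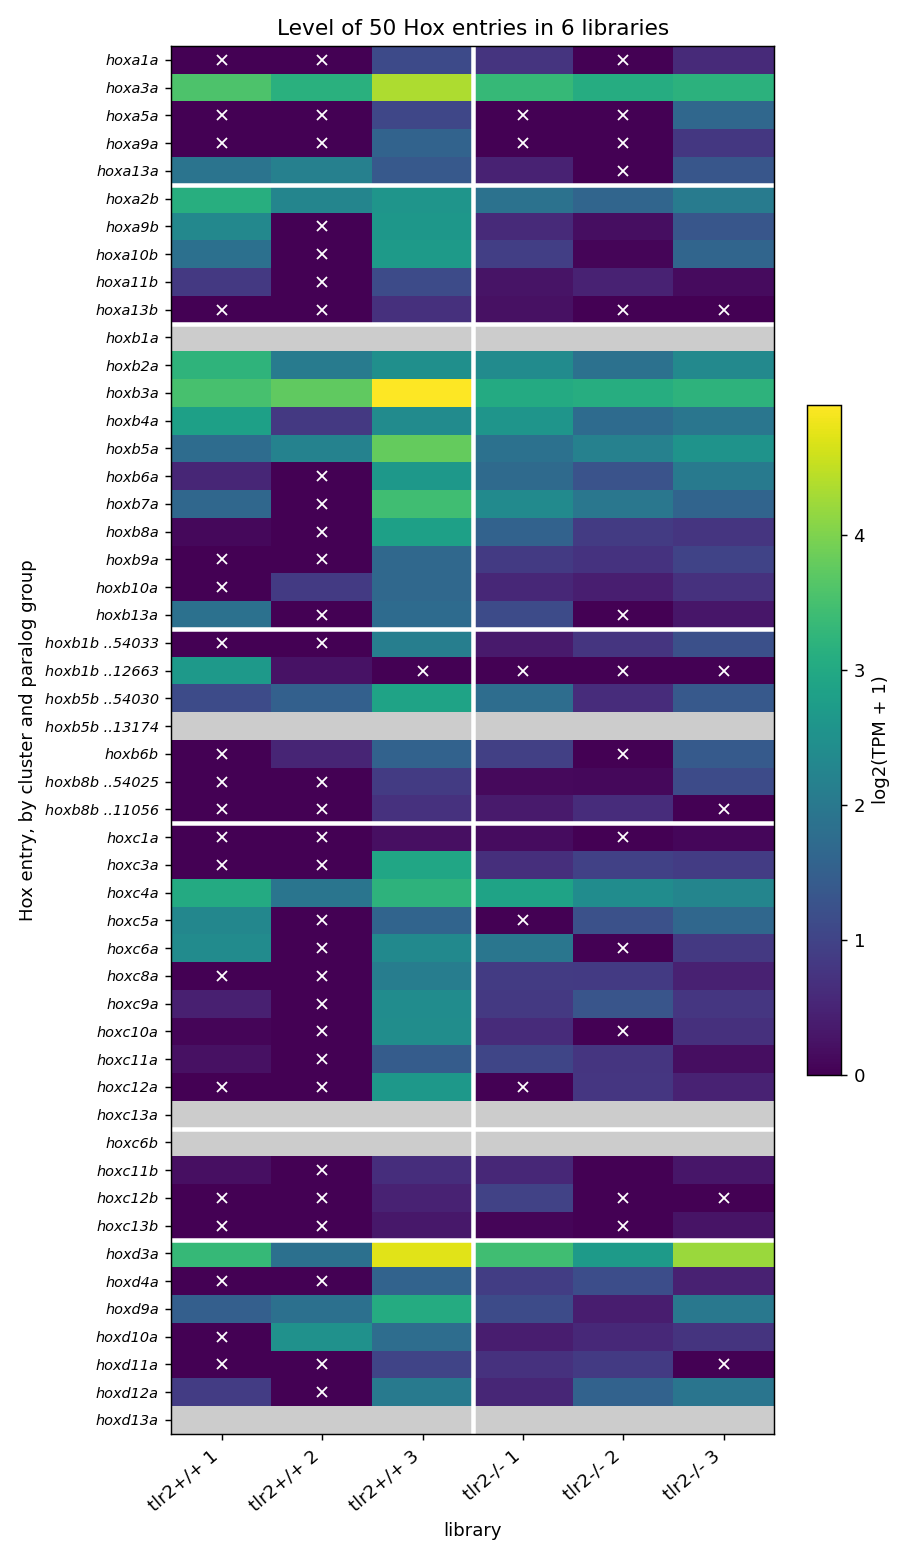
Level of the 50 Hox entries (rows, by cluster and paralog group) in the 6 libraries (columns), as log2(TPM + 1). Crosses mark entries with no read and grey rows the 5 entries without a TPM value. The rows of hoxa3a and hoxb3a are bright throughout, that of hoxd3a in all libraries but tlr2+/+ replicate 2 (2.58 TPM), and most crosses stand in tlr2+/+ replicates 1 and 2.

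By the median over entries, levels were lower in posterior than in anterior paralog groups. The median of the mean TPM was 3.56 over 13 entries of groups 1 to 4, 1.59 over 12 entries of groups 5 to 8 and 0.852 over 20 entries of groups 9 to 13. The highest means were 12.7 TPM in the anterior, 4.97 TPM (hoxb5a) in the central and 2.68 TPM (hoxd9a) in the posterior entries. Group 1 was an exception among the anterior groups, with a summed level of 2.31 TPM in the mean over libraries. This was below groups 9 (7.08 TPM), 10 (4.95 TPM), 12 (2.83 TPM) and 13 (2.89 TPM), and above group 11 (1.72 TPM). By library, groups 1 to 4 made up 50.6% to 68.1% of the summed Hox TPM, with the lowest share in tlr2+/+ replicate 3.

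The hoxba cluster held 36.4% of the Hox TPM over all libraries and was the highest cluster in each of them. The others were, by pooled share, hoxda with 18.996%, hoxca with 15.8%, hoxaa with 13.8%, hoxab with 8.57%, hoxbb with 5.79% and hoxcb with 0.565%. This order varied between libraries, and in tlr2+/+ replicate 1 hoxda, at 11.6 TPM, was below hoxca, hoxab and hoxaa. Of the duplicated clusters, hoxba was above hoxbb and hoxca above hoxcb in each of the 6 libraries, and hoxaa was above hoxab in all but tlr2+/+ replicate 1. Along hoxba the mean TPM was 4.51 for hoxb2a, 12.7 for hoxb3a, 3.56 for hoxb4a, 4.97 for hoxb5a, 2.08 for hoxb6a, 3.53 for hoxb7a, 1.61 for hoxb8a, 0.778 for hoxb9a, 0.738 for hoxb10a and 1.06 for hoxb13a. The peak at the third paralog group returned in hoxda, where hoxd3a at 11.7 TPM stood above hoxd4a at 0.747, hoxd9a at 2.68, hoxd10a at 1.43, hoxd11a at 0.410 and hoxd12a at 1.53. In hoxca the highest member was hoxc4a at 5.47 TPM, with hoxc3a at 1.51 and hoxc1a at 0.0581. The hoxcb members with a TPM value, hoxc11b, hoxc12b and hoxc13b, had means of 0.0834 to 0.240 TPM.

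**Figure D2:**
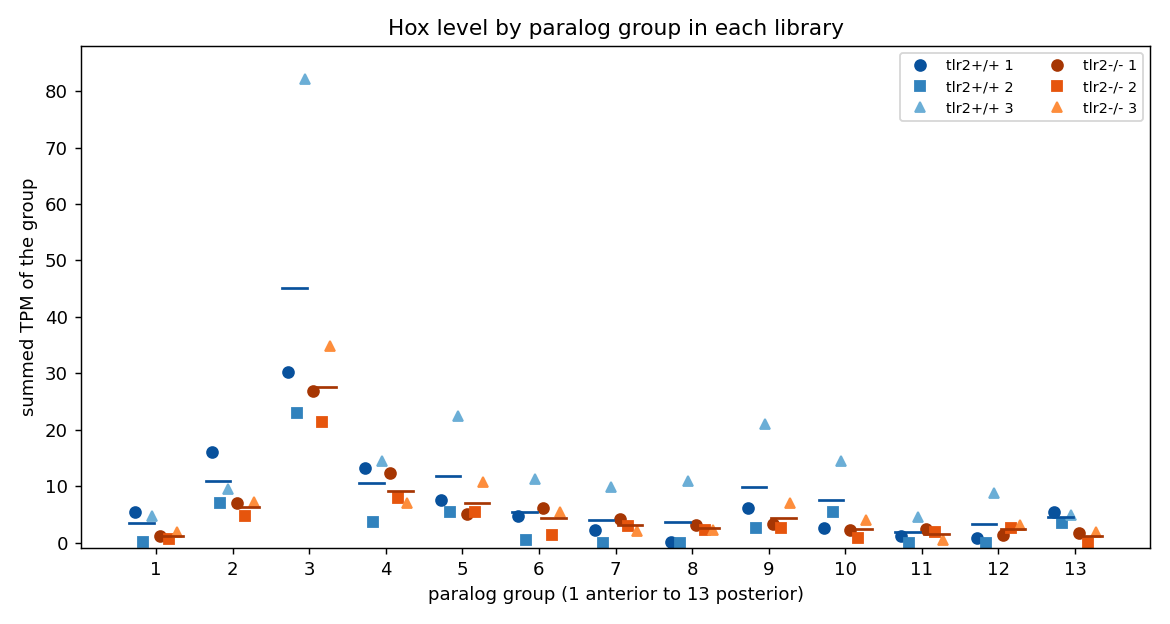
Summed TPM (y axis) of each of the 13 paralog groups (x axis) in every library, with symbols for the replicates, blue for tlr2+/+ and orange for tlr2-/-. Short lines are genotype means. Group 3 is highest, between 21.3 and 82.2 TPM, and tlr2+/+ replicate 3 is the highest point in groups 3 to 12.

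Detection differed more between libraries than between genotypes. At least 10 reads were assigned to 22, 13 and 46 of the 50 Hox entries in tlr2+/+ replicates 1, 2 and 3. In tlr2-/- replicates 1, 2 and 3 the numbers were 35, 26 and 32. The tlr2-/- libraries thus lay between the poorest and the richest tlr2+/+ libraries. With every library thinned to 17854737 reads, the counts were 20, 13 and 42 in tlr2+/+ and 32, 24 and 32 in tlr2-/-.

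Reads in all 6 libraries were found for 10 entries, namely hoxa2b, hoxa3a, hoxb2a, hoxb3a, hoxb4a, hoxb5a, the main entry of hoxb5b, hoxc4a, hoxd3a and hoxd9a. Their means ran from 2.34 to 12.7 TPM, and those of the other 35 entries with a TPM value from 0.0581 to 3.53 TPM. By position, 7 of 14 anterior entries, 2 of 14 central entries and 1 of 22 posterior entries had reads in every library. In tlr2+/+ replicate 2, the library with the fewest, reads were found for 8 anterior, 3 central and 4 posterior entries.

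**Figure D3:**
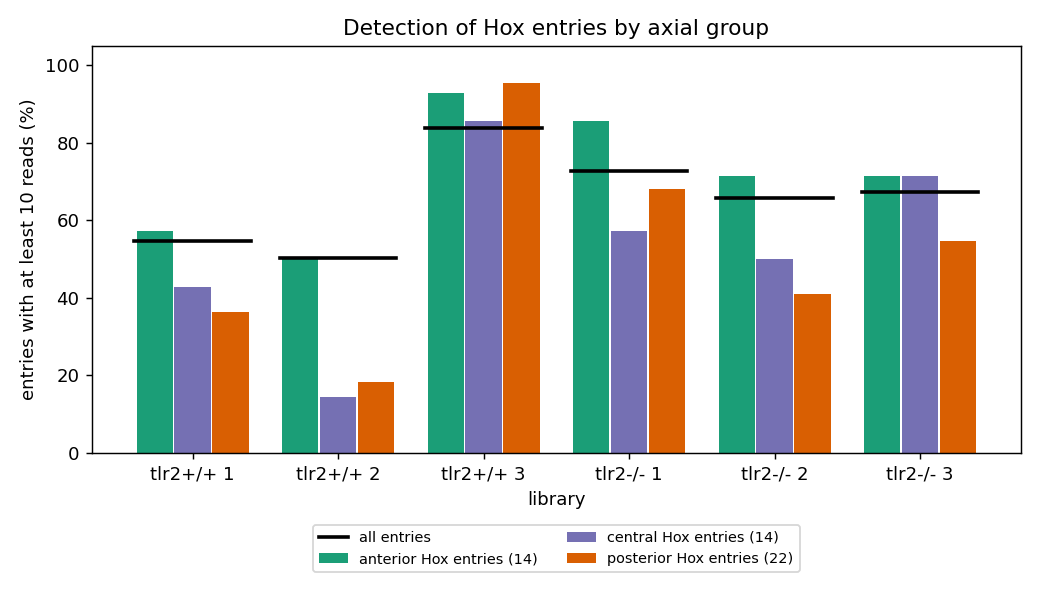
Share of Hox entries with at least 10 reads (y axis, percent) in each library, for 14 anterior (groups 1 to 4), 14 central (groups 5 to 8) and 22 posterior entries (groups 9 to 13). Black lines give the share of all 23952 entries with counts. Bars are lowest in tlr2+/+ replicate 2, with 7, 2 and 4 entries, and highest in tlr2+/+ replicate 3, with 13, 12 and 21.

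No read was found in both tlr2+/+ replicates 1 and 2 for 21 Hox entries, and 18 of these had reads in tlr2+/+ replicate 3. Of the 21, 6 had reads in all of the other 4 libraries. Where an entry had no read, up to 3 counts remain possible by counting error alone, which is 0.0567 to 0.183 CPM depending on the library. Some of these zeros stand against clear levels elsewhere. The gene hoxc3a had 0, 0 and 273 reads in the tlr2+/+ libraries and 27, 52 and 30 in the tlr2-/- libraries. At the median CPM of the other 5 libraries, tlr2+/+ replicates 1 and 2 would have held 54.9 and 33.0 reads of it.

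The same pattern was seen in hoxd4a, a hindbrain and spinal cord gene, with 0, 0 and 127 reads in tlr2+/+ and 38, 61 and 13 in tlr2-/-. The trunk gene hoxb9a had 0, 0 and 130 reads in tlr2+/+ and 30, 28 and 31 in tlr2-/-. In hoxc8a, another trunk gene, the reads were 0, 0 and 109 in tlr2+/+ and 21, 23 and 8 in tlr2-/-. In these 4 genes tlr2+/+ replicate 3 was the highest library by reads and both other tlr2+/+ libraries were empty, so the genotypes overlapped. By CPM, tlr2+/+ replicate 3 was highest for hoxc3a, hoxb9a and hoxc8a, and tlr2-/- replicate 2 was highest for hoxd4a at 3.21 CPM against 2.40 CPM.

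Genes other than Hox also lacked reads in these libraries. Among all entries whose median in the other 5 libraries was 0.5 to 5 CPM, 39.2% had no read in tlr2+/+ replicate 1 and 47.5% in replicate 2, against 2.43% in replicate 3. Among the Hox entries in that range, 9 of 24, 20 of 27 and 0 of 17 had none in these libraries. In tlr2-/- replicates 1, 2 and 3 the shares over all entries were 5.98%, 14.7% and 8.59%, with 1 of 19, 5 of 22 and 1 of 23 Hox entries. Over this whole range, the Hox share was thus close to that of all entries in tlr2+/+ replicate 1 and higher in replicate 2. The shares also fell with the level. At 0.5 to 1, 1 to 2 and 2 to 5 CPM they were 61.5%, 45.3% and 24.2% over all entries in replicate 1. The Hox entries there were 4 of 9, 5 of 9 and 0 of 6. In replicate 2 the shares were 67.8%, 55.1% and 32.5%, with 6 of 8, 9 of 12 and 5 of 7 Hox entries. These differences were not tested.

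The summed Hox level was 95.4, 51.1 and 219 TPM in tlr2+/+ replicates 1, 2 and 3 and 76.5, 54.7 and 88.02 TPM in the tlr2-/- libraries. The high value of tlr2+/+ replicate 3 gave a mean of 122 ± 87.1 TPM (SD, n = 3) in tlr2+/+ against 73.1 ± 16.9 TPM in tlr2-/-, a log2 ratio of -0.74. Without that library the ratio was -0.0033. On the CPM scale, which is adjusted for composition, the sums were 133, 111 and 184 CPM in tlr2+/+ and 124, 122 and 160 CPM in tlr2-/-, a log2 ratio of -0.08. The genotypes overlapped on both scales. Of the entries with a TPM value, 73.3% of Hox and 54.6% of all entries were highest in tlr2+/+ replicate 3, and by CPM 20 of 50 Hox entries and 28.1% of all entries.

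Whether Hox expression differed between tlr2-/- and tlr2+/+ larvae was tested with edgeR's quasi-likelihood test over all 16776 genes that passed the filter on low counts. Of the 50 Hox entries, 34 passed this filter, and 0 of them passed an adjusted p under 0.05, against 0.00596% of all genes tested (1 gene). At an unadjusted p under 0.05 there were 0 Hox genes against 3.73% of all genes. DESeq2's Wald test called 0 Hox genes of 50 at an adjusted p under 0.05, against 0.238% of all genes, and 0 at an unadjusted p under 0.05, against 4.47%. With limma-trend on log2(TPM + 1), 0 of 34 Hox genes were called on either criterion, against 0.0417% and 8.39% of all genes. Log2 fold changes, positive where tlr2-/- was higher, had a median of 0.02 over the Hox genes and 0.02 over all genes, with 17 positive and 17 negative. In CPM the genotypes overlapped in every one of the 34 genes, against 13.1% of all genes tested without overlap. In TPM 3 of the 34 did not overlap, hoxa2b, hoxa13a and hoxb3a, against 15.4% of all genes. All 3 were lower in tlr2-/-, as were 12.9% of all genes. The standard errors of the Hox genes were wide, with a median of 2.07 on the log2 scale against 1.14 over all genes, so that the absence of calls does not show equal levels.

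The test was repeated with other choices of libraries. Without tlr2+/+ replicate 3, 5 of 34 Hox genes had an unadjusted p under 0.05 against 16.7% of all genes, and 0 passed the adjustment, as did 0% of all genes. These were hoxb9a, hoxc3a, hoxc8a, hoxd4a and 1 entry of hoxb1b, which had no read in the tlr2+/+ libraries that remained. With tlr2+/+ replicate 3 as the only tlr2+/+ library, a choice made after seeing the data that takes the spread from the tlr2-/- libraries and assumes the lone sample to vary like them, 0 of 45 Hox genes passed either criterion, against 3.86% of all genes at the adjusted and 10.7% at the unadjusted threshold.

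**Figure D4:**
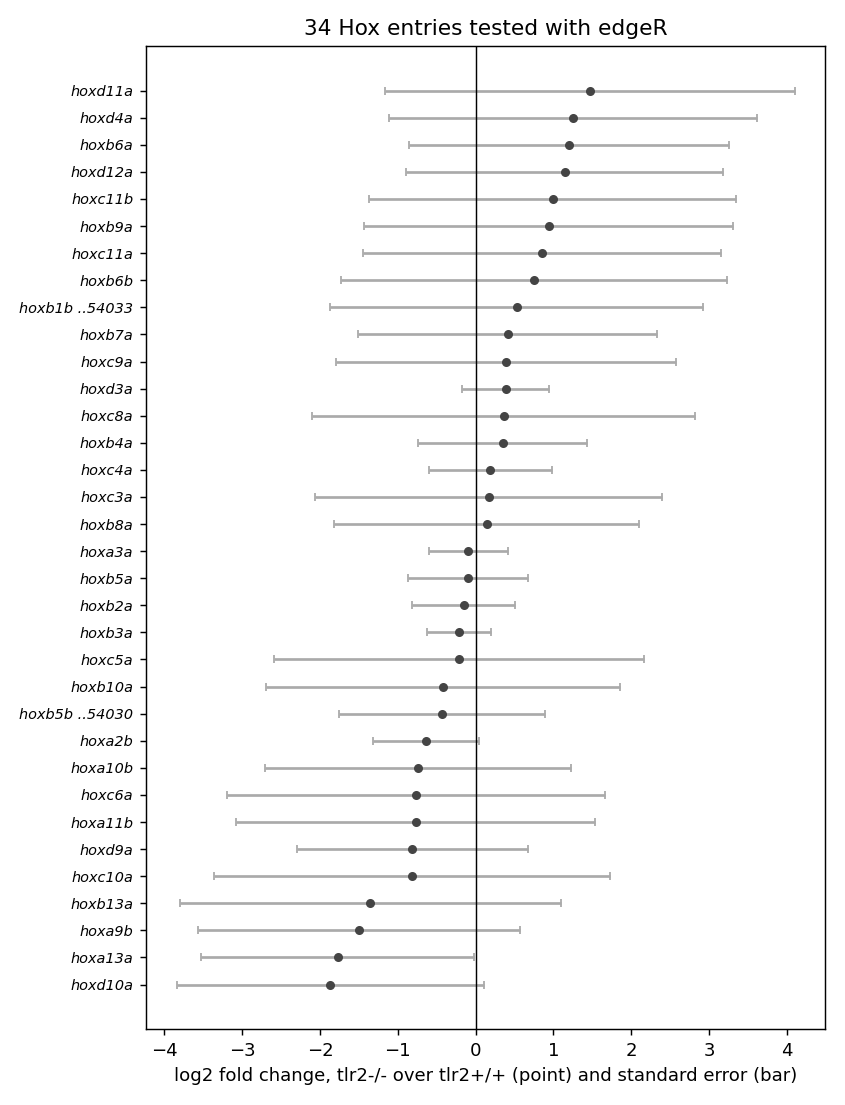
Log2 fold change of tlr2-/- over tlr2+/+ (x axis, points) with its standard error from edgeR (bars) for the 34 Hox entries tested (y axis, ordered by fold change). Values run from -1.87 for hoxd10a to 1.46 for hoxd11a, and the shortest bars belong to hoxb3a (0.41), hoxa3a (0.51) and hoxd3a (0.56).

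The genes with the smallest standard errors were hoxb3a, hoxa3a and hoxd3a of paralog group 3. The level of hoxb3a was 18.0, 45.5 and 37.9 CPM in tlr2+/+ and 26.4, 33.6 and 27.5 CPM in tlr2-/-. The tlr2-/- values lay inside the tlr2+/+ range, with a log2 fold change of -0.21 (SE 0.41, adjusted p = 1.00 from edgeR). In TPM the same gene read 10.4, 12.4 and 30.2 in tlr2+/+ and 7.24, 7.49 and 8.23 in tlr2-/-, and every tlr2+/+ library was above every tlr2-/- library. The mean was lower in tlr2-/- on both scales, and whether the genotypes overlapped depended on the scale. A transcript of 539 nt with 39.5 reads made up 41.7% of the hoxb3a TPM in tlr2+/+ replicate 1. Another of 593 nt made up 40.2% in tlr2+/+ replicate 3 with 136 reads, and 16.7% in tlr2-/- replicate 3 with 10 reads. Neither had reads in the other libraries, and their part in the TPM difference was not tested.

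In hoxa3a, which acts in the pharyngeal arches, the level was 12.3, 11.2 and 13.3 CPM in tlr2+/+ and 9.24, 12.3 and 12.99 CPM in tlr2-/-, the most even of the group, with a log2 fold change of -0.09 (SE 0.51). The level of hoxd3a spread more widely, from 6.04 to 27.3 CPM in tlr2+/+ and from 15.2 to 35.6 CPM in tlr2-/-, with a log2 fold change of 0.38 (SE 0.56). Within the group, hoxc3a was 0 in the 2 tlr2+/+ libraries in which the other 3 genes had 109 to 821 reads each.

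**Figure D5:**
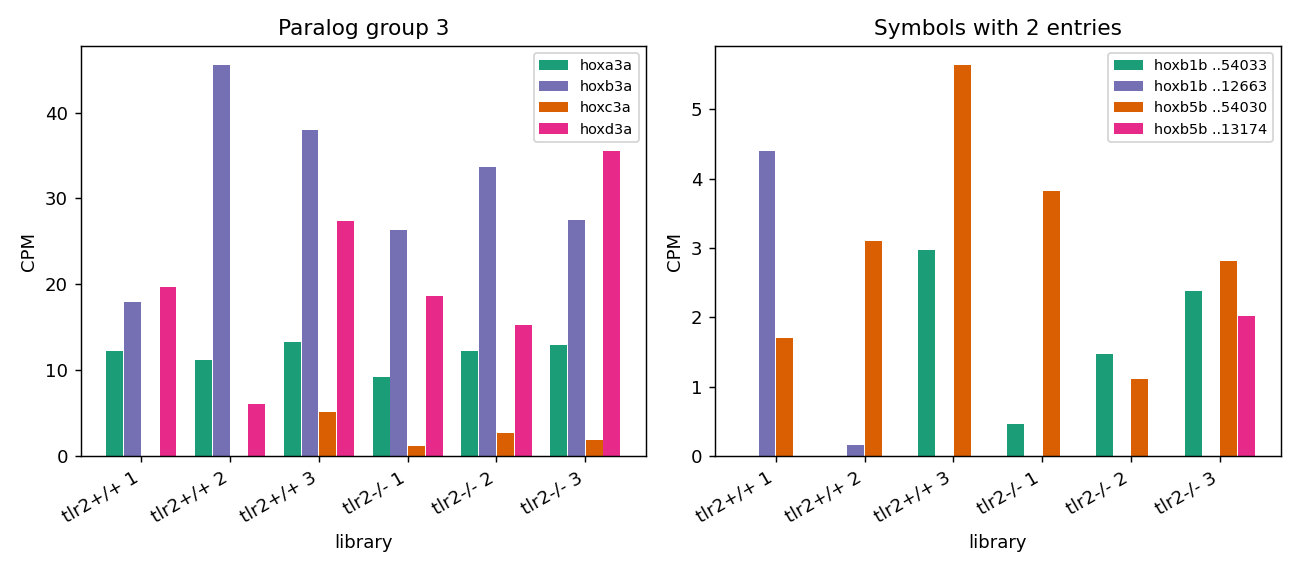
CPM (y axis) in each library (x axis) of the 4 genes of paralog group 3 (left) and of the 2 entries of hoxb1b and of hoxb5b (right), bars starting at 0. The gene hoxc3a is absent from tlr2+/+ replicates 1 and 2, and the 2 entries of hoxb1b never share a library.

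Among the anterior genes, hoxa2b and hoxb2a specify the second pharyngeal arch. The level of hoxa2b was 14.4, 8.09 and 5.52 CPM in tlr2+/+ and 5.47, 5.32 and 7.20 CPM in tlr2-/-. It was highest in tlr2+/+ replicate 1 and overlapped between genotypes in CPM, with a log2 fold change of -0.64 (SE 0.69, unadjusted p = 0.370, exact two-sided permutation p = 0.2). In TPM it read 7.61, 3.77 and 5.02 in tlr2+/+ and 2.67, 2.06 and 3.16 in tlr2-/-, without overlap. Its paralog hoxb2a overlapped on both scales. In hoxb2a the level was 15.9, 6.81 and 4.797 CPM in tlr2+/+ and 8.82, 6.80 and 9.15 CPM in tlr2-/-, a log2 fold change of -0.15 (SE 0.66). In CPM, tlr2+/+ replicate 1 was the highest library in both genes and tlr2+/+ replicate 3 the lowest of its genotype. In TPM, tlr2+/+ replicate 2 was the lowest of its genotype in both, with 3.20 TPM for hoxb2a against 4.54 TPM in replicate 3.

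Of the group 4 genes, which mark the posterior hindbrain, hoxc4a had 8.10, 3.60 and 5.12 CPM in tlr2+/+ and 7.58, 6.59 and 5.00 CPM in tlr2-/-, a log2 fold change of 0.19 (SE 0.79). The level of hoxb4a ran from 1.05 to 7.44 CPM in tlr2+/+ and from 3.85 to 6.48 CPM in tlr2-/-. Neither gene separated the genotypes.

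The central genes pattern the trunk and the position of the pectoral fin. In hoxb5a the level was 3.40, 5.93 and 11.7 CPM in tlr2+/+ and 4.09, 7.11 and 8.42 CPM in tlr2-/-, a log2 fold change of -0.10 (SE 0.77). The level of hoxb6a was 0.367, 0 and 2.53 CPM in tlr2+/+ and 2.02, 1.63 and 3.05 CPM in tlr2-/-, a log2 fold change of 1.197 (SE 2.06). In hoxb7a the level was 1.57, 0 and 3.29 CPM in tlr2+/+ and 2.48, 2.48 and 1.52 CPM in tlr2-/-. The widest range of the 3 hoxba genes at this position was that of hoxb8a, with 0.133, 0 and 6.23 CPM in tlr2+/+ against 3.63, 1.95 and 1.46 CPM in tlr2-/-. From hoxb6a to hoxb8a, tlr2+/+ replicate 2 was thus empty. In hoxb7a and hoxb8a, tlr2+/+ replicate 3 was above every tlr2-/- library. In hoxb6a, tlr2-/- replicate 3 was the highest library, at 3.05 CPM against 2.53 CPM in tlr2+/+ replicate 3.

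The hoxca genes hoxc5a and hoxc6a had no read in 2 libraries each. For hoxc5a these were tlr2+/+ replicate 2 and tlr2-/- replicate 1, with 26 to 85 reads in the others. For hoxc6a they were replicate 2 of both genotypes, with 8 to 71 reads in the others. Missing reads of these genes were therefore not a property of 1 genotype.

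Posterior genes gave the largest fitted differences, and none passed the test. The gene hoxa13a, which acts in the distal fin, had 4.50, 6.54 and 1.55 CPM in tlr2+/+ and 0.689, 0 and 2.99 CPM in tlr2-/-. It had 135 and 118 reads in tlr2+/+ replicates 1 and 2, where 8 and 4 of the 22 posterior entries reached 10 reads, and in CPM tlr2-/- replicate 3 exceeded tlr2+/+ replicate 3. In TPM it read 2.74, 3.47 and 1.62 in tlr2+/+ and 0.385, 0 and 1.496 in tlr2-/-, without overlap. Its log2 fold change was -1.77 (SE 1.75), with the smallest unadjusted p of the Hox genes (0.331, adjusted p = 1.00 from edgeR, exact two-sided permutation p = 0.2, where 3 against 3 libraries allow 0.1 at the least).

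In hoxd10a, a gene of the posterior trunk and fins, there were 0, 151 and 117 reads in tlr2+/+ and 12, 20 and 21 in tlr2-/-. One tlr2+/+ library was thus below and 2 were above all tlr2-/- libraries, and the log2 fold change was -1.87 (SE 1.97). The levels of hoxa9b were 4.37, 0 and 3.61 CPM in tlr2+/+ and 0.597, 0.211 and 2.01 CPM in tlr2-/-, and those of its neighbour in the cluster hoxa10b were 3.60, 0 and 4.78 CPM against 1.38, 0.105 and 3.54 CPM. Both genes of hoxab were lowest in the same libraries, with tlr2+/+ replicate 2 at 0 and tlr2-/- replicate 2 next. The most abundant posterior gene, hoxd9a, had 1.93, 3.16 and 4.91 CPM in tlr2+/+ and 1.38, 0.474 and 3.84 CPM in tlr2-/-, a log2 fold change of -0.81 (SE 1.48). In hoxd12a the order was the other way, with 0.900, 0 and 2.25 CPM in tlr2+/+ and 0.506, 2.90 and 3.60 CPM in tlr2-/-, a log2 fold change of 1.14 (SE 2.04).

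By paralog group, the summed TPM overlapped between genotypes in every group but the thirteenth, 1 of 13. Of single genes tested, 15.4% did not overlap in TPM in either direction. That group, whose genes pattern the tail bud and the fin tips, had 5.34, 3.47 and 4.84 TPM in tlr2+/+ and 1.78, 0 and 1.92 TPM in tlr2-/-. In CPM, with hoxc13a and hoxd13a included, it had 7.47, 6.54 and 4.401 in tlr2+/+ and 2.71, 0 and 4.02 in tlr2-/-. The CPM sums of this group did not overlap either. The sum rested mostly on hoxa13a, which overlapped in CPM and not in TPM, and on hoxb13a, which overlapped on both scales with 2.97, 0 and 1.47 CPM in tlr2+/+ and 1.42, 0 and 0.305 CPM in tlr2-/-. No cluster sum separated the genotypes.

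Some symbols have more than 1 entry, and reads of similar sequences can be assigned to either, so that single entries are uncertain. The 2 entries of hoxb1b, a gene of hindbrain segmentation, were never found in the same library. Entry ENSDARG00000112663 had 132, 3 and 0 reads in tlr2+/+ and 0 in every tlr2-/- library, and entry ENSDARG00000054033 had 0, 0 and 157 reads in tlr2+/+ and 10, 28 and 39 in tlr2-/-. With reads pooled over each genotype, the first entry was at least 25.5-fold lower in tlr2-/- against a floor of 3 counts over the tlr2-/- libraries, a bound that rests on tlr2+/+ replicate 1. Summed over both entries, the gene had 4.401, 0.166 and 2.97 CPM in tlr2+/+ and 0.460, 1.48 and 2.38 CPM in tlr2-/-, a log2 fold change of -0.80 (SE 1.73, adjusted p = 0.999 from edgeR).

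The second entry of hoxb5b, ENSDARG00000113174, had 33 reads in tlr2-/- replicate 3 and none elsewhere, at least 19.4-fold higher in tlr2-/- against 3 counts over the tlr2+/+ libraries. Its main entry, ENSDARG00000054030, had 46 reads in that library and 21 to 298 in the others. Summed, hoxb5b had 1.70 to 5.63 CPM in tlr2+/+ and 1.11 to 4.82 CPM in tlr2-/-, with a log2 fold change of -0.09 (SE 1.198). The apparent restriction of an entry to 1 genotype thus disappeared in both genes when the entries were added.

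Other genes with reads in 1 library alone were hoxb1a, the gene of the fourth hindbrain segment, with 12 reads, and hoxd13a with 15 reads, both in tlr2+/+ replicate 3. Pooled over genotypes, they were at least 2.26-fold and 2.83-fold lower in tlr2-/- against the same floor, and without that library no read was left. The remaining such genes, hoxc13a with 4 reads in tlr2-/- replicate 1 and hoxc6b with 2 reads in tlr2-/- replicate 3, were near or under the floor.

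Transcript choice also varied between libraries. The 11 Hox entries joined to several transcripts had 40 transcripts in all. Of these, 13, 4 and 26 had at least 1 read in the tlr2+/+ libraries and 19, 11 and 20 in the tlr2-/- libraries, fewest in tlr2+/+ replicate 2 and most in tlr2+/+ replicate 3, as for the detection of genes. The transcript ENSDART00000174580 of hoxb3a had 344, 821 and 1099 reads in tlr2+/+ and 276, 638 and 326 in tlr2-/-. The transcript ENSDART00000078466 of the same gene had 0, 0 and 694 reads in tlr2+/+ and 298, 0 and 115 in tlr2-/-. The second was absent from libraries of both genotypes in which the first had 344 to 821 reads.

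In hoxd12a, the 2 transcripts excluded each other. One (ENSDART00000142842) had all 119 reads of tlr2+/+ replicate 3, and the other (ENSDART00000082339) had all reads of the other libraries, 27 and 0 in tlr2+/+ and 11, 55 and 59 in tlr2-/-. The same held in hoxa9a, where the 47 reads of tlr2+/+ replicate 3 and the 18 reads of tlr2-/- replicate 3 fell on different transcripts. These reads are Salmon estimates, which divide reads shared between transcripts, so the split is less certain than the sum per gene.

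Genes that act with Hox proteins or regulate Hox genes were described from lists, with the same test. Of 13 tested entries of the Pbx, Meis and Pknox cofactors, 0 passed the adjusted threshold, where the share over all genes was 0.00596%. For 0 of the 13 the unadjusted p was under 0.05, where that share was 3.73%. With so few entries, these counts of 0 do not set the list apart from all genes. There were 8 positive and 5 negative, with a median log2 fold change of 0.04. The cofactor genes meis1b and meis1a had the smallest p. The level of meis1b was 41.6, 52.8 and 97.7 CPM in tlr2+/+ and 41.2, 34.2 and 40.3 CPM in tlr2-/-. Every tlr2-/- library was thus below every tlr2+/+ library. The gap was narrow, with 41.2 CPM as the highest tlr2-/- value and 41.6 CPM as the lowest tlr2+/+ value. Of all genes tested, 13.1% did not overlap in CPM in either direction. The log2 fold change of meis1b was -0.73 (SE 0.39, unadjusted p = 0.0829, adjusted p = 1.00 from edgeR). In meis1a the levels were 39.5, 22.8 and 18.9 CPM in tlr2+/+ and 17.5, 17.8 and 8.54 CPM in tlr2-/-, also without overlap. Its log2 fold change was -0.89 (SE 0.47, unadjusted p = 0.0839 from edgeR). The 15 cofactor entries with counts summed to 292 to 564 CPM in tlr2+/+ and 346 to 397 CPM in tlr2-/-.

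Of 26 tested entries of regional and retinoic acid regulators, 0 passed the adjusted threshold, against 0.00596% of all genes tested. An unadjusted p under 0.05 was found for 0, against 3.73% of all genes. There were 7 positive and 19 negative, with a median log2 fold change of -0.46. Over all genes, 51.1% were positive and the median was 0.02. The 33 regulator entries with counts summed to 251, 231 and 258 CPM in tlr2+/+ and 191, 164 and 209 CPM in tlr2-/-. The genotypes did not overlap in this sum, which was not tested. Of single genes tested, 13.1% did not overlap in CPM in either direction. The smallest p belonged to 1 of 2 entries of rarab (ENSDARG00000111757), a retinoic acid receptor, at a log2 fold change of -1.96 (SE 1.13), but with both entries summed it was -0.07. The receptor genes rarga and raraa had log2 fold changes of -1.15 (SE 0.68) and -0.68 (SE 0.42).

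Of 29 tested entries of Polycomb, Trithorax and chromatin architecture genes, 0 passed the adjusted threshold, and 1 had an unadjusted p under 0.05, a share near the 3.73% of all genes. This was jarid2a, which encodes a partner of Polycomb repressive complexes, with 21.7, 21.2 and 24.1 CPM in tlr2+/+ and 11.6, 6.85 and 12.4 CPM in tlr2-/-. The genotypes did not overlap, as in 13.1% of all genes, and the log2 fold change was -1.12 (SE 0.46, unadjusted p = 0.0311, adjusted p = 1.00 from edgeR). The Polycomb subunit gene eed went the other way. It had 55.8, 62.0 and 26.4 CPM in tlr2+/+ and 87.7, 80.2 and 84.3 CPM in tlr2-/-, also without overlap. The log2 fold change of eed was 0.81 (SE 0.38, unadjusted p = 0.0515 from edgeR). Neither passed the adjustment over all genes.

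Markers of tissues that express Hox genes were set beside these values, and their part in the Hox levels was not tested. Neuronal genes, 16 symbols with 17 entries, summed to 1163, 1369 and 1972 CPM in tlr2+/+ and 1578, 1494 and 1877 CPM in tlr2-/-, with at most 1 entry without a read in a library. Genes of motor neurons and hindbrain nuclei, 11 entries, summed to 126 to 140 CPM in tlr2+/+ and 110 to 118 CPM in tlr2-/-, with 1 to 4 entries at 0 in a library. Of 7 tested, 3 were positive and 4 negative, with a median log2 fold change of -0.03. An unadjusted p under 0.05 was found for 1 of the 7, against 3.73% of all genes tested. This was slc18a3a, the vesicular acetylcholine transporter, with 25.2, 30.96 and 26.5 CPM in tlr2+/+ and 9.33, 10.3 and 14.9 CPM in tlr2-/- (log2 fold change -1.26, SE 0.43, unadjusted p = 0.0116, adjusted p = 1.00 from edgeR). The genotypes did not overlap in this gene, as in 13.1% of all genes tested. The list sums, which did not overlap either, include slc18a3a and were not tested. In isl2a of the same list the order was the other way, also without overlap. It had 7.70, 6.81 and 11.8 CPM in tlr2+/+ and 18.4, 18.3 and 12.8 CPM in tlr2-/- (log2 fold change 0.91, SE 0.51, unadjusted p = 0.101 from edgeR). Fin fold and fin bud genes, 16 entries with 2 to 4 at 0, had their highest sums in replicate 1 of both genotypes. These were 800 and 824 CPM against 259 to 360 CPM in the other libraries. The largest members were the genes and2, at 427 and 403 CPM in these libraries, and and1, at 244 and 247 CPM. Not all members were highest there. The gene tfap2a had 15.4, 2.66 and 50.4 CPM in tlr2+/+ and 36.3, 44.7 and 45.4 CPM in tlr2-/-. Pronephros and kidney genes, 11 entries with 0 to 4 at 0, ran from 280 to 390 CPM in tlr2+/+ and from 260 to 284 CPM in tlr2-/-. Germ cell and pluripotency genes, 6 entries of which 2 to 6 had no read, stayed at 0 to 3.27 CPM.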

How the data were processed

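RNA of whole larvae was sequenced in 3 samples per genotype, and nothing was left out of the main comparison. The authors deposited estimated counts and TPM values from Salmon v1.2.1 on GRCz11, per transcript, and a gene table whose mean signal came from DESeq2 v1.24.0. The fold changes and s-values of that table were not used. For Salmon's options and the annotation release, the sources used here give nothing. Deposited transcripts carry no gene names, so genes were joined to neighbouring transcript rows (up to 40) that give the authors' mean signal with a relative difference under 1e-12. This placed 21079 of 23956 entries. Another 2873, with reads in 1 library, had their count solved from that mean and have no TPM. The deposited estimated counts of a gene were added, rounded, filtered and scaled (TMM) and fitted with genotype alone in edgeR 4.0.16, with robust quasi-likelihood tests and Benjamini-Hochberg adjustment over all genes. Standard errors are the fold change divided by the square root of F. SD is over 3 libraries. The exact test used log2(CPM + 0.5).

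Genes named are the 3 of highest mean TPM per cluster, the highest of each paralog group, members with an unadjusted p under 0.05 or without overlap between genotypes, and members with reads in 1 genotype alone and at least 10 reads there. Further members were named after their values were seen, as examples of missing reads or to complete a cluster. From lists of other genes, up to 4 of smallest p were eligible. Other list members were named after their values were seen, to show what a sum held or which way others went. The members and lists were chosen with earlier results of these data known. The alternatives were scaling by RLE, all genes unfiltered, genes of mean CPM 1 or more, DESeq2 1.42.0, limma 3.58.1 (limma-trend on log2(TPM + 1) and log2(TPM + 0.1)), a replicate block, length offsets, summed symbols, each library left out, and, chosen after seeing the data, tlr2+/+ replicate 3 alone. The fits were tested on simulated data. R 4.3.3, Python, numpy, pandas and matplotlib were used, with seed 7.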

Additional observations from a re-analysis of the deposited data

How the results depend on the processing

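No Hox gene passed the adjusted threshold under any alternative in which Hox genes were counted (0 of 27 to 50 tested). The fit with limma-trend on log2(TPM + 0.1) was read for the named genes only. At an unadjusted p under 0.05, 1 Hox gene was found without a filter (hoxb1b, entry ENSDARG00000112663, adjusted p = 0.824 from edgeR, beside 1131 of 23952 genes in all), and 0 to 5 when a library was left out. The 5 were found without tlr2+/+ replicate 3. They were hoxb1b (entry ENSDARG00000054033), hoxb9a, hoxc3a, hoxc8a and hoxd4a, which then had no read in tlr2+/+, against 16.7% of all genes tested, and their lowest adjusted p was 0.259. The median log2 fold change of the Hox genes ran from -0.18 to 0.42 with a library left out. It was -0.25 with limma-trend on log2(TPM + 1), where the median of all genes was -0.22. The log2 ratio of the summed Hox TPM ran from -1.11 to -0.0033 with a library left out, and it was -1.58 with tlr2+/+ replicate 3 alone.

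Deviations from the genotype means correlated at 0.0018, 0.044 and 0.057 between samples of the same replicate number. Between samples of unlike numbers the correlations ran from -0.11 to 0.074. With 3 samples per genotype, these values cannot decide whether the replicate numbers pair the samples. With the replicate block 0 Hox genes passed, 64 genes passed over all, and the median of the Hox genes was 0.61 against 0.33 over all genes.

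Of 21 named genes tested, 4 kept their sign in each of the 13 alternatives compared gene by gene (hoxa13a, hoxa9b, hoxd12a and hoxd9a), and 17 did not. The fits without a filter, with the mean CPM filter and with summed symbols were not part of this comparison. With the replicate block, hoxb2a was 0.023, hoxb5a 0.020, hoxa10b 0.043 and hoxc5a 0.91. With limma-trend, hoxc4a was -0.21 on log2(TPM + 1) and -0.23 on log2(TPM + 0.1). With tlr2+/+ replicate 3 alone, hoxb2a was 0.95, hoxb6a -0.015, hoxa2b 0.29, hoxb1b -0.88, hoxb8a -1.24, hoxb7a -0.43, hoxd3a -0.077, hoxc5a 0.46 and hoxc11a -0.37. With a library left out, the ranges were -0.19 to 0.040 for hoxa3a, -0.057 to 7.93 for hoxb1b, -0.45 to 0.59 for hoxb2a, -0.42 to 0.055 for hoxb3a, -0.33 to 0.50 for hoxb5a, -0.83 to 0.12 for hoxb5b, -0.17 to 1.46 for hoxb7a, -0.45 to 4.96 for hoxb8a, -0.27 to 2.21 for hoxc11b, -0.051 to 0.66 for hoxc4a, -0.85 to 1.43 for hoxc5a, -2.31 to 0.29 for hoxc6a and -0.070 to 0.86 for hoxd3a. The causes were not tested.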
